A study of Mus musculus with 12 samples.

Results

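In 12 of the 112 isoforms of the serotonin receptor mRNA 5-Ht2cr (gene Htr2c) listed in the deposited table, the codon that holds sites A and B, that of Ile157, was edited at A, at B or at both, while site E and the 6 minor sites 1, 2, 3, F, G and H were unedited. The rule uses the label and no measured value: a label made only of the letters A, B, C and D that holds A or B. Each of the 3 ways to edit the codon (A only, B only, A+B) was present with neither C nor D, with C, with D and with C and D, which gives the 12. The mRNA came from choroid plexus of PWScrp-/m5'LoxP (LoxP) and of wild type (WT) male mice at postnatal day 21, with 6 libraries of 2 pooled choroid plexuses per genotype. LoxP mice carry the 5'LoxP knock-in cassette upstream of the Snord116 and Snord115 clusters on the maternal allele and lack the Snord116 cluster on the paternal allele, and according to the study they express both snoRNAs in this tissue (and in some tissues outside the brain), whereas WT mice express neither there. Effects of Snord115, of Snord116 and of the paternal deletion cannot be told apart in this comparison, since the WT mice carry none of these alleles. The labels give the same mixed 129SV and C57BL6/J background, mostly C57BL6/J, for all 12 libraries.

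The receptor 5-HT2C couples serotonin to G proteins, and the choroid plexus epithelium, which secretes the cerebrospinal fluid, is rich in its mRNA. ADAR enzymes deaminate adenosines of the pre-mRNA to inosine, which is read as guanosine, at sites in the second intracellular loop of the receptor, and receptors with more of these codons changed couple less efficiently to their G protein. ADAR1 edits sites A and B, and ADAR2 edits site D. Snord115 is a small nucleolar RNA with a stretch complementary to exon Vb that includes sites C and D but neither A nor B. The comparison of LoxP with WT asks whether receptor mRNA is edited differently where the snoRNA is present.

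Sites A and B are the first and the third base of 1 codon, so the sequences show which change each label stands for. In GRCm38, Htr2c (ENSMUSG00000041380.13) spans chrX:146962513-147197277 on the + strand. The 30 nt in which editing was followed matched the coding sequence of 2 annotated GENCODE M21 transcripts, from 147169678 to 147169707, within an exon of 201 nt that is number 5 in 1 transcript and number 6 in the other. With the A/B codon in capitals, the exon reads as follows from 40 nt before this window to its 3′ end (chrX:147169638-147169770, + strand).
Exon context: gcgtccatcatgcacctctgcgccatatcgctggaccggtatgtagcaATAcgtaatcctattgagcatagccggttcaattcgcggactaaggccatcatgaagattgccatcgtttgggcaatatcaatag
Site A lies at 147169686, site B at 147169688, site C at 147169693 and site D at 147169698. The next line gives the unedited window with these 4 adenosines in capitals, from 5′ to 3′.
NoEdit: atgtagcaAtAcgtaAtcctAttgagcata

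The 12 isoforms differ from this window only at the guanosines in capitals, and all 112 deposited sequences matched their labels in this way. They are shown because the class and the encoded residues follow directly from them.
A: atgtagcaGtacgtaatcctattgagcata
AC: atgtagcaGtacgtaGtcctattgagcata
AD: atgtagcaGtacgtaatcctGttgagcata
ACD: atgtagcaGtacgtaGtcctGttgagcata
B: atgtagcaatGcgtaatcctattgagcata
BC: atgtagcaatGcgtaGtcctattgagcata
BD: atgtagcaatGcgtaatcctGttgagcata
BCD: atgtagcaatGcgtaGtcctGttgagcata
AB: atgtagcaGtGcgtaatcctattgagcata
ABC: atgtagcaGtGcgtaGtcctattgagcata
ABD: atgtagcaGtGcgtaatcctGttgagcata
ABCD: atgtagcaGtGcgtaGtcctGttgagcata
Editing of A alone turns the isoleucine codon ATA into GTA for valine, editing of B alone turns it into ATG for methionine, and editing of both gives GTG, again valine. Sites C and D change Asn159 to serine and Ile161 to valine.

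The values are the authors' means over the libraries of a genotype, in RPKM, reads of an isoform scaled to the length of the cDNA and to the mapped reads of the library. No value of a single library was used here, so the differences below carry no SD and no test, and whether they exceed the spread between libraries was not assessed here. The reads behind each mean were likewise not analysed here, so no counting error is given. Levels below are percentages of the sum of these means over the 112 isoforms, edited and unedited, called percent of transcripts. The sums were 1371582 RPKM in LoxP and 1460612 RPKM in WT.

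The 12 isoforms accounted for 7.40% of transcripts in LoxP and 10.0% in WT. As percentages of the edited transcripts alone these levels were 11.5% in LoxP and 14.5% in WT. Transcripts with only A edited were the largest class, at 4.75% in LoxP and 5.70% in WT. Transcripts with both sites edited followed with 2.03% in LoxP and 3.52% in WT, and those with only B edited were rare, at 0.615% in LoxP and 0.814% in WT. Within the 12, A only made up 64.2% in LoxP against 56.8% in WT, and A+B 27.5% in LoxP against 35.1% in WT, whereas B only took 8.31% in LoxP and 8.12% in WT. The 12 differed by -2.63 percentage points in sum, LoxP minus WT, and all edited transcripts by -4.58 points. The A+B class alone differed by -1.48 points, which is 32.4% of the size of that net difference, against 20.8% for A only and 4.35% for B only. These percentages are not parts of a whole, since the net difference combines falls and rises outside the 12. Isoform D differed by -0.923 points and CD by -1.07 points, but C by 0.302 points.

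Among the transcripts with only A edited, those that also carried D were the most abundant. AD had 33894 RPKM in LoxP and 44104.5 RPKM in WT, or 2.47% of transcripts in LoxP and 3.02% in WT, and ranked number 4 of the 111 edited isoforms in both genotypes. ACD had 14490.4 RPKM in LoxP and 19010.4 RPKM in WT. Isoform A, with no other change, had 13314 RPKM in LoxP and 14590.2 RPKM in WT, and AC had 3450.18 RPKM in LoxP and 5546 RPKM in WT. The LoxP over WT ratio of the percentages was 0.97 for A, 0.82 for AD, 0.81 for ACD and 0.66 for AC. A was thus nearly as abundant in LoxP as in WT, while AC was the only A only isoform whose ratio went beyond a fold of 1.5.

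The transcripts with A and B edited were ordered in the same way, with ABD at the top. ABD had 18402 RPKM in LoxP and 32223 RPKM in WT, or 1.34% of transcripts in LoxP and 2.21% in WT. ABCD, in which all 4 sites were edited, had 5132 RPKM in LoxP and 12761 RPKM in WT. AB had 2860.32 RPKM in LoxP and 4598 RPKM in WT, and ABC had 1509.96 RPKM in LoxP and 1761 RPKM in WT. The ratio was 0.43 for ABCD, 0.61 for ABD, 0.66 for AB and 0.91 for ABC, so that ABC stood apart from the other members of its class.

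The methionine transcripts spanned the widest range of ratios. BD had 6367 RPKM in LoxP and 7378 RPKM in WT, and B had 1373 RPKM in LoxP and 1587 RPKM in WT, with a ratio of 0.92 for each. BCD had 535 RPKM in LoxP and 2631 RPKM in WT, a ratio of 0.22 and the lowest of the 12. BC was the rarest member in both genotypes, with 161.3 RPKM in LoxP and 294 RPKM in WT and a ratio of 0.58. BCD ranked 33 among the edited isoforms in LoxP and 16 in WT. It supplied 6.35% of the B only class in LoxP and 22.1% in WT.

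All 12 isoforms had a lower percentage of transcripts in LoxP, against 64.0% of all 111 edited isoforms and 86.2% of the 29 that combine only A, B, C, D and E. As a percentage of edited transcripts, isoform A was the exception, with a ratio of 1.04. Past a fold of 1.5, 6 of the 12 (BCD, ABCD, BC, ABD, AB and AC) were lower in LoxP, against 35.1% of all edited isoforms and 44.8% of those 29. None of the 12 was higher past this fold, against 13.5% of all edited isoforms. The members just past the fold were AB and AC, both at 0.66, and the next was ACD at 0.81. As percentages of edited transcripts AB and AC were both at 0.71, short of the fold, which left 4 of the 12 past it. The share of the 12 past the fold was 50%, close to that of the 29. Both the 29 and the 111 include the 12 themselves, so these comparisons are in part of the 12 with themselves. The median ratio was 0.74 over the 12, 0.76 over the 29 and 0.91 over all 111. Over the 99 edited isoforms outside the 12 it was 0.93.

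In sums over isoforms with the same number of edited sites, the ratio was lower the more sites they carried. The 2 isoforms with 1 edited site, A and B, together had 1.07% of transcripts in LoxP and 1.11% in WT, a ratio of 0.97. For the 5 isoforms with 2 sites the levels were 3.41% in LoxP and 4.24% in WT, with a ratio of 0.80. For the 4 isoforms with 3 sites they were 2.55% in LoxP and 3.81% in WT, with a ratio of 0.67. ABCD, with 4 sites, was at 0.374% in LoxP and 0.874% in WT. Its ratio of 0.43 was the lowest of these 4 steps. Many single isoforms did not keep this order. With 2 sites, BC at 0.58 and AB and AC at 0.66 lay below the sum for 3 sites. With 3 sites, ACD at 0.81 and ABC at 0.91 lay above the sum for 2 sites, and BCD at 0.22 lay below ABCD. AD, BD and ABD kept the order.

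Within each background of C and D, the share of transcripts with the A/B codon edited was computed against the isoform of that background with the A/B codon unedited (the unedited isoform, C, D or CD). Where neither C nor D was edited, the A/B codon was edited in 3.48% of transcripts in LoxP and 4.40% in WT. Where only C was edited, the share was 8.61% in LoxP and 12.4% in WT. Where only D was edited, it was 9.40% in LoxP and 12.0% in WT, and where C and D were edited it was 16.2% in LoxP and 21.3% in WT. The A/B codon was hence edited most often on transcripts that carried C and D, in either genotype, and the share was lower in LoxP in each of the 4 backgrounds. The LoxP over WT ratio of this share was 0.79, 0.69, 0.79 and 0.76 in that order of backgrounds. These shares do not depend on how abundant the backgrounds themselves were.

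The 3 classes contributed differently to this in each background. With C and D edited, A only transcripts took 11.6% of the background in LoxP and 11.8% in WT, a ratio of 0.99. In the same background A+B took 4.12% in LoxP and 7.91% in WT, and B only 0.430% in LoxP and 1.63% in WT. With only C edited, the order was the opposite, since A only took 5.80% in LoxP and 9.08% in WT but A+B took 2.54% in LoxP and 2.88% in WT. With only D edited, the share of A+B was 2.95% in LoxP and 4.61% in WT, and that of A only 5.43% in LoxP and 6.31% in WT. With neither edited, A+B took 0.567% in LoxP and 0.973% in WT, against 2.64% in LoxP and 3.09% in WT for A only. The ratio for A+B was thus below that for A only in 3 of the 4 backgrounds, the exception being C alone.

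The same values show how often site B was edited once A was. Taking the 4 backgrounds together, B was edited too in 29.99% of A-edited transcripts in LoxP and in 38.1% in WT, against 0.692% in LoxP and 0.944% in WT of the transcripts without editing at A. In WT this conditional share formed a pair of levels, 42.2% with D and 40.2% with C and D, against 24.1% with C and 24.0% with neither. In LoxP it was 35.2% with D, 26.2% with C and D, 30.4% with C and 17.7% with neither. The difference, LoxP minus WT, was -14.0 points where C and D were edited, -7.03 points with D, -6.28 points with neither, and 6.35 points with C alone. In the opposite direction, site A was changed in 76.8% of the B-edited transcripts in LoxP and in 81.2% in WT.

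Editing at C and D was itself distributed differently over the classes. D was edited in 84.3% of A+B transcripts in LoxP and 87.6% in WT, in 81.8% of B only in LoxP and 84.2% in WT, and in 74.3% of A only in LoxP and 75.8% in WT. In the 4 isoforms with the A/B codon unedited, D was edited in 55.3% in LoxP and 59.5% in WT. C was edited in 23.8% of A+B transcripts in LoxP and 28.3% in WT, and in 27.5% of A only in LoxP and 29.5% in WT. For B only the corresponding values were 8.26% in LoxP and 24.6% in WT, the largest gap of the 3 classes, and BCD accounted for most of it. In the isoforms with the A/B codon unedited C was edited in 13.1% in LoxP and 14.5% in WT.

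At the level of the protein, the 12 transcripts encode 8 receptor variants, named here by the residues at the positions of Ile157, Asn159 and Ile161. Val157 was encoded by 6.78% of transcripts in LoxP and 9.21% in WT through the 8 isoforms with A edited, and Met157 by the 4 B only isoforms at the levels given above for that class. The ratio of valine to methionine was 11.0 in LoxP and 11.3 in WT over the 4 backgrounds together, and the genotypes lay further apart in 3 of the 4 backgrounds. With C and D edited it was 36.7 in LoxP and 12.1 in WT, and with C alone 30.8 in LoxP and 24.9 in WT. In LoxP these ratios divide by the rare BCD and BC. Those stood at only 1.60 and 1.09 times the highest change at a minor site of their background in LoxP. With D alone it was lower in LoxP, at 8.21 against 10.3 in WT, and with neither it was 11.8 in LoxP and 12.1 in WT. The ratio with neither divides by B, which was also low, at 1.67 times the highest minor site in LoxP and 1.88 times in WT. VNV, encoded by AD and ABD, was the most abundant variant of the 12, at 3.81% in LoxP and 5.23% in WT. VSV, encoded by ACD and ABCD, was at 1.43% in LoxP and 2.18% in WT, and VNI, encoded by A and AB, at 1.18% in LoxP and 1.31% in WT. VSI, encoded by AC and ABC, was at 0.362% in LoxP and 0.5003% in WT. Of the methionine variants, MNV (BD) was at 0.464% in LoxP and 0.505% in WT, and MNI (B) at 0.1001% in LoxP and 0.109% in WT. MSV (BCD) was at 0.0390% in LoxP and 0.180% in WT, and MSI (BC) at 0.0118% in LoxP and 0.0201% in WT. The order of the 8 variants was the same in both genotypes except that MNI stood above MSV in LoxP and below it in WT. That exchange rests on the same low level of BCD in LoxP.

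Since GTA and GTG both encode valine, each valine variant was a mixture of A only and A+B transcripts. The GTG codon made up 35.2% of VNV in LoxP and 42.2% in WT, and 26.2% of VSV in LoxP and 40.2% in WT. For VNI these shares were 17.7% in LoxP and 24.0% in WT, and for VSI 30.4% in LoxP and 24.1% in WT. The LoxP over WT ratio was 0.73 for VNV, 0.66 for VSV, 0.90 for VNI and 0.72 for VSI. For VSV the difference of -0.745 points lay more in ABCD, at -0.4995 points, than in ACD, at -0.245 points. For VNV the corresponding differences were -0.864 points for ABD and -0.548 points for AD. VSI differed from them in that its difference of -0.139 points lay almost wholly in the A only transcript AC, at -0.128 points.

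The rarest members were set beside the A-to-G changes at the 6 minor sites, counted on the same 4 isoforms with the A/B codon unedited. On the unedited isoform the minor sites were changed in 0.107% to 0.168% of its level in LoxP and in 0.112% to 0.187% in WT, and B in 0.282% in LoxP and 0.351% in WT. B was thus 1.67 times the highest minor site in LoxP and 1.88 times in WT. On isoform C the minor sites reached 0.0955% to 0.273% in LoxP and 0.0899% to 0.175% in WT, and BC stood at 0.297% of C in LoxP and 0.549% in WT. In LoxP, BC was therefore 1.09 times the highest minor site of its background. On D, BD stood at 1.13% in LoxP and 1.20% in WT, or 3.86 times the highest minor site in LoxP and 3.90 times in WT. On CD, BCD stood at 0.512% in LoxP and 2.07% in WT, or 1.60 times the highest minor site in LoxP and 8.04 times in WT. The A only isoforms were at least 16.2 times the highest minor site in all 4 backgrounds and both genotypes. Whether changes other than editing contribute to the B only levels was not tested.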

How the data were processed

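RNA of 12 libraries, 6 per genotype, was converted to cDNA from 100 ng, amplified for 10 and then 15 cycles, and sequenced on an Ion PGM. No molecular identifiers are described. The authors mapped the reads to cDNAs of 209 nt and 114 nt and counted the combinations of 11 sites. The aligner is not given in the sources used here, and the submitters' processing notes name SAMtools and R 3.3.2. The deposited RPKM values are the authors' means per genotype, for isoforms of at least 10 RPKM in either genotype. The deposited percent columns were not used. The table's further columns hold the authors' fold, p-values and adjusted p-values, which were not used.

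Shares and ratios were computed from the means with Python 3.11.15, after the code was tested on simulated data. A fold of 1.5 was used for counts, and alternatives that moved a value by more than a factor of 1.1 were noted, since no SD was at hand. Coordinates came from an exact match to GENCODE M21. All 12 isoforms are named, and beside them the unedited isoform, C, D and CD as their backgrounds. Reads per library were not analysed here, and no test was run. The 12 isoforms, classes and thresholds were chosen with earlier results of these data known.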

Additional observations from a re-analysis of the deposited data

How the results depend on the processing

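Of 94 recomputed values, 71 stayed within a factor of 1.1 of the value given or, for counts, 1.5, and 22 moved further. The 1 reversal was isoform A, with a LoxP over WT ratio of 1.04 as a percentage of edited transcripts. Ratios of the 12 isoforms were below 1 in 47 of 48 recomputations, but this count is no test of their direction. Each change of scale multiplies all 12 ratios by the same factor. In RPKM and relative to the unedited isoform that factor is below 1, so ratios already below 1 could not pass it. The factor for the unedited isoform alone also counts every isoform and class ratio as moved. Relative to the unedited isoform the ratio was 0.73 for A only, 0.66 for B only and 0.50 for A+B. With the 4 backgrounds weighted equally, the B only ratio was 0.57, because BC and BCD then count as much as BD. At a fold of 2, 2 isoforms were lower in LoxP in place of 6, and as a percentage of edited transcripts 4 were past a fold of 1.5, without AB and AC at 0.71 each. As a percentage of edited transcripts, Val157 was at 10.5% in LoxP and 13.3% in WT and Met157 at 0.954% in LoxP and 1.18% in WT. Over all isoforms of the table, Val157 was at 7.31% in LoxP and 10.2% in WT. No paired analysis was possible because the deposited columns are genotype means and carry no replicate numbers. The reads behind the rare BC and BCD were not analysed here, so no detection limit is given.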

Other observations

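Most of the 12 patterns recurred with site E edited as well, which changes Asn159 to aspartate, or to glycine together with C. Of the 12 possible counterparts 10 were listed, and those of BC and BCD were not. Per 100 transcripts without E, the A only class had 8.25 with E in LoxP and 12.3 in WT, the A+B class 2.09 in LoxP and 4.03 in WT, and the B only class 1.104 in LoxP and 0.506 in WT. The counterpart of AB, ABE, had a mean of 5.44 RPKM in LoxP and 859 RPKM in WT, or 0.190% of AB in LoxP and 18.7% in WT. For AD the counterpart AED was at 7.75% of AD in LoxP and 7.27% in WT. ABE and AED were chosen after their values were seen. ABE was under the authors' minimum of 10 RPKM in LoxP and was listed through WT alone, so it could only appear as lower in LoxP. The same holds for ABEC, with 1.98 RPKM in LoxP and 65.0 RPKM in WT. The values of the A+B class with E include ABE and ABEC, so their gap follows in part from that minimum. The other A+B counterparts were mixed. ABED was at 2.42% of ABD in LoxP and 2.98% in WT, and ABECD at 2.56% of ABCD in LoxP and 1.44% in WT. The means have no spread between libraries, so whether 1 library carries the value of ABE in WT was not tested.

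All but B, BC and ABC were also found with 1 further change at a minor site, in 42 listed isoforms. Of the 13 that derive from A+B isoforms, 11 had a lower percentage of transcripts in LoxP, with a median LoxP over WT ratio of 0.37. Of the 23 from A only isoforms 15 were lower, with a median of 0.93, and of the 6 from B only isoforms 2 were lower, with a median of 1.15. Listed isoforms have at least 10 RPKM in either genotype, so an isoform under 10 RPKM in LoxP can only be listed if higher in WT. Among the A+B derivatives this held for ABCDG, ABCDF, 3ABCD, 1ABCD, ABG and ABCDH. It also held for ACG, 3AC, ACF, 3BCD and BDF, and in reverse for ACH and 1BD. These counts and medians thus follow in part from the listing rule, and they cannot rank the classes of derivatives. The median of 0.37 was itself the ratio of 3ABCD. Among A+B derivatives above 10 RPKM in both genotypes, 3ABD, ABDH, ABDF, ABDG and 1ABD were lower in LoxP, at ratios of 0.196 to 0.82. In the same set, 2ABD and 2ABCD were higher in LoxP. Both B only derivatives that were lower, 3BCD and BDF, were under 10 RPKM in LoxP. Over all 111 edited isoforms 64.0% were lower in LoxP, with a median of 0.91, close to the values for the A only derivatives. In sum they amounted to 1.08% of the A+B class in LoxP and 0.926% in WT, to 1.40% of the A only class in LoxP and 1.57% in WT, and to 1.096% of the B only class in LoxP and 0.565% in WT. Single derivatives went against their parents: 2ABCD had 75.6 RPKM in LoxP and 18.8 RPKM in WT, and ACH had 92.2 RPKM in LoxP and 4.98 RPKM in WT. These 2 were also chosen after their values were seen. ACH was under 10 RPKM in WT and so was listed through LoxP alone, which fixes the direction of its ratio. 2ABCD was above 10 RPKM in both genotypes.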
